A study of Gloeophyllum trabeum with 9 samples.

Results

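Iron-reducing glycopeptides (GLPs) are small secreted glycoproteins, first described from wood-rotting fungi, that reduce ferric iron. The 5 genes examined here have the protein IDs 101715, 104526, 132851, 58158 and 130687, out of 11846 gene models measured. They are those that the study of the brown rot fungus *Gloeophyllum trabeum* names as putative GLP genes. The study's table of such genes holds 101715, 104526, 132851 and 58158. Its text names 130687 in place of 132851 and calls that gene upregulated on cellulose and cedar. Whether 130687 was the gene meant is not known, and all 5 were kept. In the tests below, 130687 was upregulated on neither substrate against glucose, with ratios of 0.307 on cedar and 0.946 on cellulose. By contrast, 132851 was upregulated on both, with ratios of 5.50 on cedar and 67.9 on cellulose. Whether the genome holds further GLP genes was not examined, because no protein sequences were used here. In the RefSeq annotation of the assembly Glotr1_1, all 5 had a matching locus tag. The genes spanned 919 bases (101715), 611 bases (104526), 675 bases (132851), 1753 bases (58158) and 677 bases (130687), and their scaffolds were not named in the table used.

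Brown rot fungi break down cellulose and hemicellulose in wood while leaving most of the lignin behind in modified form. Before their hydrolases can reach the polysaccharides, they are thought to open the cell wall with hydroxyl radicals, which form when ferrous iron meets hydrogen peroxide in the chelator-mediated Fenton (CMF) reaction. Ferric iron must be reduced for this reaction, and GLPs have been proposed as one reductant beside hydroquinones, quinone reductases and hemoproteins. Whether a molecule as large as a glycoprotein acts inside the intact cell wall is debated.

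RNA was sequenced from mycelium of strain NBRC6430 grown in shaken flasks with 1 sole carbon source. The groups were Japanese cedar (5 days, 3 cultures), cellulose (5 days, 3 cultures) and glucose (3 days, 3 cultures), with 1 library for each culture. The cedar wood flour and the microcrystalline cellulose had been nanofibrillated, and the medium of all cultures held added iron, other metals and thiamin. Because the glucose cultures were younger than the others, carbon source and culture time cannot be told apart in the comparisons with glucose. Nanofibrillated material in shaken liquid is not solid wood, and a single strain was used.

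Levels are given in TPM, an abundance relative to all transcripts of a library and corrected for transcript length, as rescaled between libraries by the authors. The rescaled values summed to 709862 to 899473 TPM in cedar libraries, 1574620 to 1680450 TPM in cellulose libraries and 678148 to 771024 TPM in glucose libraries. The values carry no read counts, so that the depth behind a single gene is unknown and precision was taken from the spread between libraries. As a check of the labels, the GH5_5 endoglucanase gene Glotr_63180, whose product cleaves cellulose, had 303, 31.2 and 404 TPM in cedar libraries, 8657, 13123 and 3057 TPM in cellulose libraries, and 2.78, 5.13 and 2.43 TPM in glucose libraries. All libraries of each group lay apart from those of the others for this gene.

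The GLP genes differed from each other in level by orders of magnitude and in their response to the carbon source. The most abundant, 101715, was higher on cedar and on cellulose than on glucose. The genes 132851 and 104526 were also higher on both, with 104526 barely transcribed on glucose. The gene 58158 was higher on cellulose than on glucose and on cedar, and 130687 passed the test in no comparison and had its lowest levels on cedar. Calls of upregulation and downregulation required both a limma adjusted p below 0.01 and group means that differed by a ratio of 2 or more, or of 0.5 or less.

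**Figure D1:**
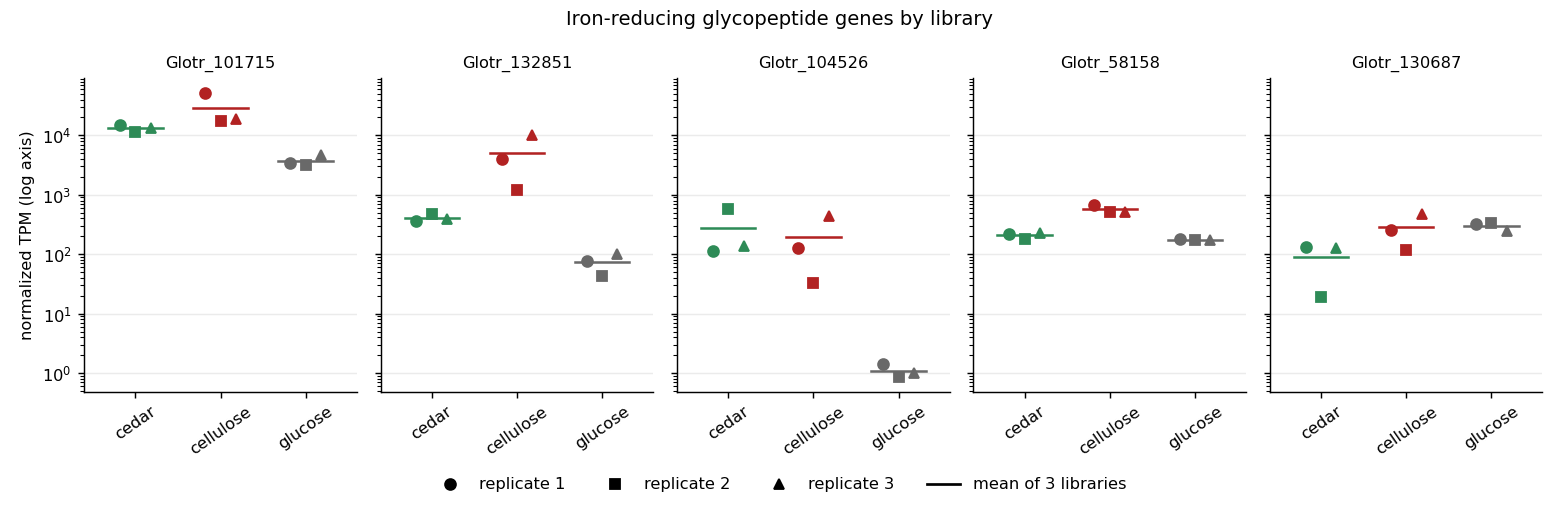
Normalized TPM of the 5 GLP genes in each library, on a log axis shared by all panels, by carbon source, with a symbol for each replicate and a line at the mean of 3 libraries. Glotr_101715 stands above the other genes in every group, at 11474 TPM or more on cedar, and Glotr_104526 is near 1 TPM on glucose only.

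The gene 101715 was among the most abundant transcripts of the fungus in every library. It had 14874, 11474 and 13307 TPM in cedar libraries, 52234, 17111 and 18593 TPM in cellulose libraries, and 3428, 3149 and 4595 TPM in glucose libraries. The 3 groups did not overlap, and cellulose replicate 1 stood far above the other cellulose libraries. Ranked by TPM among all gene models, the gene stood at places 5 to 7 on cedar, 4 to 7 on cellulose and 13 to 15 on glucose. It made up 1.48 to 1.66% of the library total on cedar, 1.02 to 3.32% on cellulose and 0.408 to 0.678% on glucose, so that its share of all transcripts, which does not depend on the scaling, was also above glucose in every cedar and cellulose library. On cedar its mean was 3.55 times that on glucose (log2 fold change 1.84, SE 0.280, 95% interval 1.18 to 2.50, adjusted p = 0.00108). On cellulose its mean was 7.87 times that on glucose (log2 fold change 2.80, SE 0.545, 95% interval 1.50 to 4.10, adjusted p = 0.00562). Without cellulose replicate 1 the ratio on cellulose was 4.79. The call on cedar was lost without the filter on low values (adjusted p = 0.141) and with all 3 groups in 1 fit (adjusted p = 0.0102). The call on cellulose was lost without glucose replicate 1, 2 or 3 (log2 fold changes 2.75, 2.68 and 2.96, adjusted p = 0.0289, 0.0295 and 0.0172), without the filter (adjusted p = 0.149) and after rescaling to the same total TPM (log2 fold change 1.63, adjusted p = 0.0325).

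The gene 132851 showed the widest separation between the substrates. It had 362, 471 and 392 TPM in cedar libraries, 3934, 1225 and 9979 TPM in cellulose libraries, and 77.6, 43.3 and 102 TPM in glucose libraries. No groups overlapped, and the cellulose libraries spanned 8.15-fold among themselves. The rank among all gene models was 101 to 156 on cedar, 8 to 76 on cellulose and 792 to 1732 on glucose. The mean on cedar was 5.50 times that on glucose (log2 fold change 2.53, SE 0.301, 95% interval 1.82 to 3.24, adjusted p = 0.000333), and the mean on cellulose was 67.9 times that on glucose (log2 fold change 5.69, SE 0.744, 95% interval 3.91 to 7.46, adjusted p = 0.00107). Both calls were made in all 19 alternatives, with adjusted p between 0.000194 and 0.00933 on cedar and between 0.000109 and 0.00654 on cellulose. On cellulose the ratio was 34.7 without cellulose replicate 3 and 93.6 without cellulose replicate 2.

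The gene 104526 had the largest fold change of the group against glucose, and the lowest level on glucose. It had 115, 580 and 137 TPM in cedar libraries, 127, 33.4 and 432 TPM in cellulose libraries, and 1.41, 0.849 and 1.01 TPM in glucose libraries. Every cedar and cellulose library lay far above every glucose library, while cedar and cellulose overlapped. Its rank was 76 to 594 on cedar, 224 to 2386 on cellulose and 9358 to 9741 on glucose. The mean on cedar was 254.8 times that on glucose (log2 fold change 7.06, SE 0.576, 95% interval 5.70 to 8.42, adjusted p = 5.72e-05), and the mean on cellulose was 181 times that on glucose (log2 fold change 6.29, SE 0.832, 95% interval 4.31 to 8.27, adjusted p = 0.00112). By log2 fold change it was at place 12 among the 1601 gene models upregulated on cedar and at place 25 among the 1093 upregulated on cellulose. Both calls were made in all 19 alternatives, with adjusted p between 3.26e-06 and 0.000965 on cedar and between 0.00033 and 0.00694 on cellulose. The size of the ratio rests on single libraries, at 116 on cedar without cedar replicate 2 and 73.5 on cellulose without cellulose replicate 3. With 0.5 added to each TPM before the logarithm, a log2 fold change from levels this low on glucose understates the ratio.

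The gene 58158 had 222, 179 and 229.9 TPM in cedar libraries, 673, 521 and 504 TPM in cellulose libraries, and 177.5, 171 and 176 TPM in glucose libraries. Cellulose stood above both other groups, and the lowest cedar library was barely above the highest glucose library. On cellulose the mean was 3.23 times that on glucose (log2 fold change 1.68, SE 0.165, 95% interval 1.29 to 2.07, adjusted p = 0.000308). This call was lost after rescaling to the same total TPM (log2 fold change 0.52, adjusted p = 0.0442). On cedar the ratio was 1.20 (log2 fold change 0.26, 95% interval −0.04 to 0.55, adjusted p = 0.109), which passed neither threshold.

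The gene 130687 had 129.8, 19.1 and 124.9 TPM in cedar libraries, 252, 117 and 476 TPM in cellulose libraries, and 320.3, 329.6 and 243 TPM in glucose libraries. All cedar libraries lay below all glucose libraries, with cedar replicate 2 the lowest, whereas cellulose spanned the glucose values. The ratio to glucose was 0.307 on cedar (log2 fold change −2.11, SE 0.698, 95% interval −3.76 to −0.46, adjusted p = 0.0323) and 0.946 on cellulose (log2 fold change −0.29, 95% interval −1.44 to 0.86, adjusted p = 0.640). Neither passed the threshold of 0.01. Without cedar replicate 2, the value on cedar was smaller in size and past the threshold (log2 fold change −1.21, adjusted p = 0.000784), and it also passed after rescaling to the same total TPM (−2.29, adjusted p = 0.00835).

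Counted together, 3 of the 5 GLP genes were upregulated on cedar against glucose and 0 were downregulated, beside upregulation of 15.2% and downregulation of 15.7% of all 10555 gene models in this test. On cellulose against glucose, 4 of the 5 were upregulated and 0 were downregulated, beside 10.4% and 13.9% of 10501 gene models. The median log2 fold change of the GLP genes was 1.84 on cedar and 2.80 on cellulose, beside 0.04 and −0.09 for all gene models. All 5 genes passed the filter on low values in every comparison. With so few genes, counts and medians describe these members and no test of the list was made. The comparisons share the glucose libraries, so that they are not independent of each other.

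**Figure D2:**
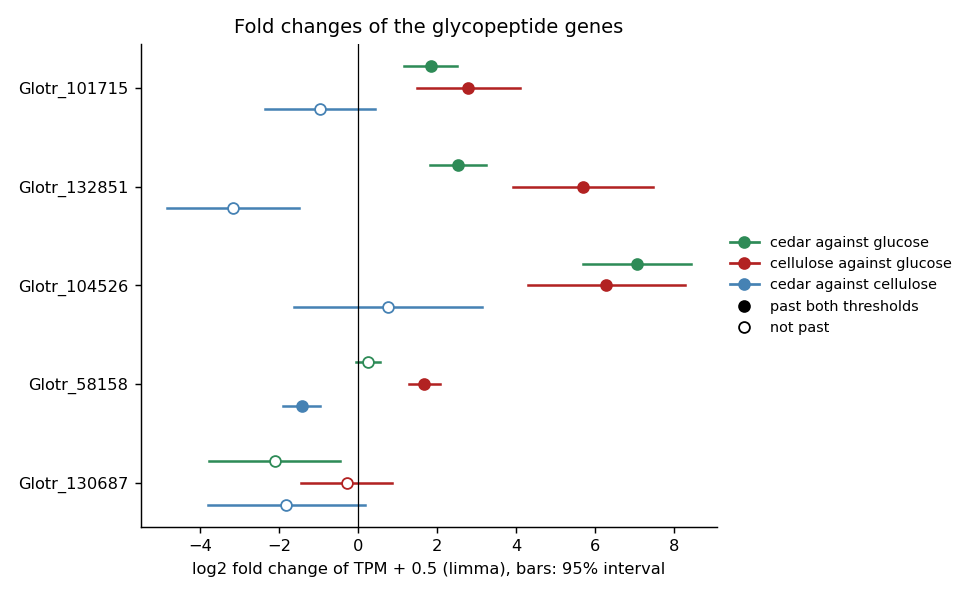
Log2 fold changes of TPM + 0.5 for the 5 GLP genes in 3 comparisons, from limma, with 95% intervals as bars and filled points past both thresholds. Cedar and cellulose lie to the right of 0 against glucose for Glotr_101715, Glotr_132851 and Glotr_104526, and Glotr_58158 is the single gene with a filled point for cedar against cellulose.

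**Figure D3:**
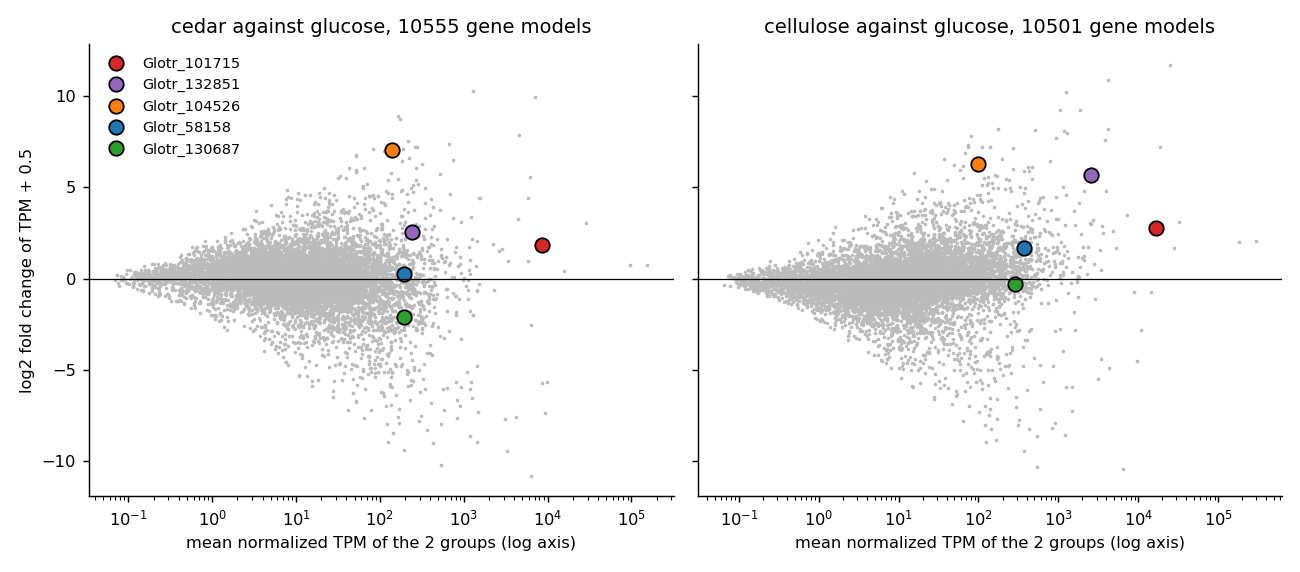
Log2 fold change of TPM + 0.5 against glucose plotted over the mean normalized TPM of both groups (log axis), for cedar (10555 gene models) and cellulose (10501 gene models), with gene models in grey and the GLP genes in colour. Glotr_101715 lies at the right edge of the cloud and Glotr_104526 along its upper edge, at log2 fold changes of 7.06 on cedar and 6.29 on cellulose.

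The direct comparison of cedar with cellulose tests whether the response differed between the substrates, with both groups at 5 days. Of the 5 GLP genes, 0 were upregulated and 1 was downregulated on cedar, beside 10.7% and 5.95% of 10503 gene models. The gene 58158 was lower on cedar, at 210 ± 27.2 TPM, against 566 ± 92.7 TPM on cellulose (SD, n = 3 each; ratio 0.372, log2 fold change −1.42, SE 0.195, 95% interval −1.89 to −0.96, limma adjusted p = 0.00238). It was lost as a call without cedar replicate 1 (log2 fold change −1.46, adjusted p = 0.0133), without cedar replicate 3 (−1.49, adjusted p = 0.0142) and after rescaling to the same total TPM (−0.44, adjusted p = 0.107), to the total without the 2 highest gene models (−0.68, adjusted p = 0.0101) or by quantile normalization (−0.62, adjusted p = 0.0177).

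The gene 132851 averaged 409 ± 56.4 TPM on cedar and 5046 ± 4482 TPM on cellulose (SD, n = 3 each). All cedar libraries lay below all cellulose libraries, but the log2 fold change of −3.16 (SE 0.704, 95% interval −4.84 to −1.49) narrowly missed the threshold in limma, with an adjusted p of 0.0123. It passed without cellulose replicate 2 (log2 fold change −3.95, adjusted p = 0.00402), without cellulose replicate 3 (−2.43, adjusted p = 0.00814) and with all 3 groups in 1 fit (adjusted p = 0.00396). For the other members the interval of the difference was wide. It ran from −2.34 to 0.43 around −0.96 for 101715 (adjusted p = 0.223), whose groups did not overlap. For 104526 it ran from −1.61 to 3.15 around 0.77 (adjusted p = 0.562), and for 130687 from −3.81 to 0.17 around −1.82 (adjusted p = 0.119), and the libraries of both these genes overlapped between the substrates. The value for 101715 was 0.026 after rescaling to the same total TPM and 0.00062 after quantile normalization, so that its direction rests on the scaling.

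The order of the GLP genes by level changed with the carbon source, with 101715 first throughout. On cedar the order was 101715, 132851, 104526, 58158 and 130687, in which the libraries of 104526 overlapped with those of 132851 and of 58158. On cellulose it was 101715, 132851, 58158, 130687 and 104526, and the libraries of the last pair overlapped. On glucose it was 101715, 130687, 58158, 132851 and 104526, and no neighbours overlapped. Summed, the GLP genes held 1.58 to 1.79% of the library total on cedar, 1.14 to 3.63% on cellulose and 0.479 to 0.755% on glucose, and the glucose libraries were below all others.

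The makeup of this sum, which does not depend on how the libraries were scaled, also shifted. The gene 101715 supplied 90.2 to 94.7% of it on cedar, 62.0 to 91.3% on cellulose and 85.2 to 89.8% on glucose. The share of 132851 was 2.31 to 3.71% on cedar, 6.44 to 33.3% on cellulose and 1.17 to 1.99% on glucose, highest in cellulose replicate 3. The share of 130687 was 0.150 to 0.880% on cedar, 0.441 to 1.59% on cellulose and 4.75 to 8.92% on glucose. Thus 130687 was the second GLP transcript on glucose, and its share was lower in every cedar and cellulose library than in any glucose library, in a sum that was itself larger there. The share of 58158 separated in the same way, at 1.41 to 1.62% on cedar, 1.18 to 2.74% on cellulose and 3.45 to 4.63% on glucose. The gene 104526 supplied 0.733 to 4.56% on cedar, 0.176 to 1.44% on cellulose and 0.0198 to 0.0351% on glucose.

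Replicate spread differed among the GLP genes and between the groups. On the log2 scale, the SD of 104526 was 1.28 on cedar, 1.84 on cellulose and 0.254 on glucose, against a median over 8649 gene models with at least 1 TPM in every library of 0.148, 0.237 and 0.123. On cellulose, 99.6% of those gene models had a smaller SD than 104526, 99.1% had a smaller SD than 132851, 96.9% a smaller SD than 130687 and 95.9% a smaller SD than 101715. The SD of 58158 was 0.193 on cedar, 0.227 on cellulose and 0.0281 on glucose, and the shares of gene models with a smaller SD were 64.3%, 47.7% and 4.47%.

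The deviations ran together for some of the genes within a group. On cellulose, 104526, 132851 and 130687 all had replicate 3 highest, then replicate 1, then replicate 2, whereas the endoglucanase gene Glotr_63180 had the opposite order and 101715 had replicate 1 highest. In cedar replicate 2, 130687 lay 1.80 below its group mean on the log2 scale (deviation −1.80) and Glotr_63180 deviated by −2.31, while 104526 deviated by 1.47. Nothing in the labels sets these libraries apart, and what they share was not tested.

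**Figure D4:**
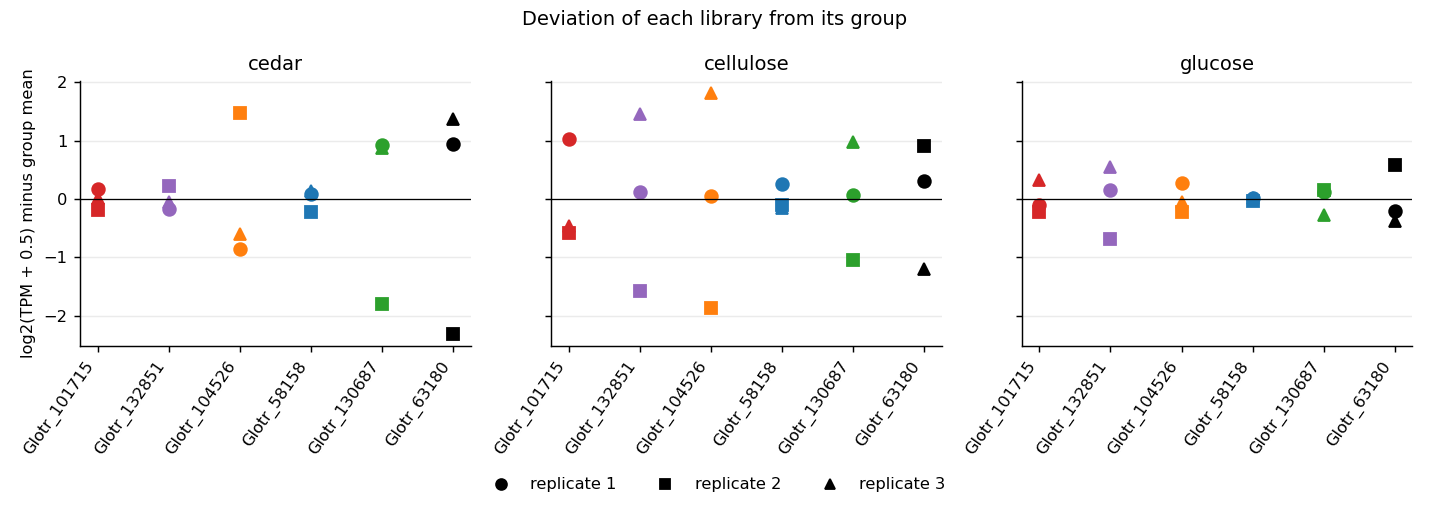
Deviation of log2(TPM + 0.5) in each library from its group mean, for the 5 GLP genes and the endoglucanase gene Glotr_63180, with a symbol for each replicate. On cellulose, replicate 3 is highest and replicate 2 lowest for Glotr_132851, Glotr_104526 and Glotr_130687, and in cedar replicate 2 Glotr_104526 deviates by 1.47 and Glotr_130687 by −1.80.

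The pattern over the libraries was compared with all 9760 gene models that had a mean of at least 1 TPM. The measure was Pearson's coefficient of log2(TPM + 0.5) over 9 libraries, which share the 3 carbon sources, so that any gene with the same group levels scores high. Between GLP genes it was 0.879 for 101715 and 132851, 0.881 for 132851 and 58158, 0.831 for 101715 and 58158, 0.794 for 101715 and 104526, 0.779 for 132851 and 104526, and 0.476 for 104526 and 58158. The gene 130687 stood apart, at 0.244 with 58158, 0.0356 with 132851, −0.162 with 101715 and −0.475 with 104526. For each GLP gene many other gene models were more alike than any other GLP gene. The closest were Glotr_40487, Glotr_116237 and Glotr_108807 for 101715 (0.991, 0.983 and 0.980), and Glotr_110180, Glotr_112272 and Glotr_49500 for 104526 (0.992, 0.992 and 0.991). They were Glotr_33266, Glotr_120283 and Glotr_141164 for 132851 (0.995, 0.988 and 0.988), and Glotr_113553, Glotr_110492 and Glotr_139471 for 58158 (0.993, 0.991 and 0.991). For 130687 they were Glotr_34720, Glotr_120220 and Glotr_135065, at 0.937, 0.928 and 0.904. With Spearman's coefficient, the closest 3 shared 1 gene with this list for 101715, 1 for 132851 and 0 for each of the others.

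The GLP genes were set beside 16 other genes of the Fenton system, which make or recycle iron-reducing hydroquinones, oxalate and hydrogen peroxide. The list left out the AA3_2 oxidoreductase, terpene synthase, polyketide synthase and cytochrome P450 genes, so it is not the whole system. The study reports AA3_2 genes upregulated on cellulose, on cedar or on both. On cedar against glucose, 5 of the 16 were upregulated and 3 were downregulated, with a median log2 fold change of 0.29. On cellulose against glucose, 6 were upregulated and 2 downregulated, with a median of 0.24. On cedar against cellulose, 3 were upregulated and 3 downregulated, with a median of 0.23. Of all gene models, 15.2% were upregulated and 15.7% downregulated on cedar against glucose, 10.4% and 13.9% on cellulose against glucose, and 10.7% and 5.95% on cedar against cellulose. After rescaling to the same total TPM, 2 of the 16 were upregulated and 6 downregulated on cellulose against glucose, beside 3.36% and 56.5% of all gene models, and 9 were upregulated and 1 downregulated on cedar against cellulose, beside 4897 (46.7%) and 141 of the 10494 gene models. Without glucose replicate 1, 3 were upregulated on cellulose against glucose, beside 7.94% of all gene models. Without cedar replicate 1 or 3, 0 were upregulated on cedar against cellulose, beside 3.67% and 2.76% of all gene models.

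Of the other proposed iron-reducing genes, none of the 3 quinone reductase genes of family AA6, whose products reduce benzoquinones to hydroquinones, was upregulated on either substrate. The AA6 gene Glotr_82342 had 90.0 to 151 TPM on cedar, 60.6 to 128 TPM on cellulose and 264 to 416 TPM on glucose. Its log2 fold change was −1.46 on cedar (adjusted p = 0.00157) and −1.86 on cellulose (adjusted p = 0.00278), opposite in sign to those of the called GLP genes. The cellulose call was lost without cellulose replicate 1, glucose replicate 2 or glucose replicate 3 (adjusted p up to 0.0120). The AA6 gene Glotr_66940 was downregulated on cedar (log2 fold change −0.97, adjusted p = 0.000529, ratio 0.493) and not called on cellulose (−0.10, adjusted p = 0.775). The AA6 gene Glotr_101783 was called on neither (−0.72 on cedar and −1.44 on cellulose, adjusted p = 0.0220 and 0.0104). Of the 4 laccase genes of family AA1_1, which oxidizes hydroquinones to semiquinones, 1 was upregulated on cedar and 1 on cellulose, and 0 and 1 were downregulated. The upregulated one, Glotr_130426, had 6.99 to 17.8 TPM on cedar, 10.9 to 26.4 TPM on cellulose and 0.674 to 0.941 TPM on glucose. It was upregulated on both, by log2 fold changes of 3.00 (adjusted p = 0.000206) and 3.67 (adjusted p = 0.000154), at levels far below those of 101715. Glotr_107459 was downregulated on cellulose, with means of 0.683 TPM there and 1.83 TPM on glucose (log2 fold change −0.98, adjusted p = 0.00134, lost with quantile normalization at −0.56 and with the ratio taken from the fit), and Glotr_43770 and Glotr_127593 were called in neither comparison with glucose.

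The AA3_3 alcohol oxidase gene Glotr_139980 has a product that makes peroxide from methanol. Among the listed genes for hydrogen peroxide it came closest to 101715 in level on cedar and on cellulose, but not on glucose. It had 8979, 9744 and 8781 TPM in cedar libraries, 8348, 6697 and 7825 TPM in cellulose libraries, and 44.7, 37.5 and 34.6 TPM in glucose libraries. Its log2 fold change was 7.87 on cedar (adjusted p = 1.61e-07) and 7.60 on cellulose (adjusted p = 2.09e-06), in the range of 104526. The pyranose 2-oxidase gene Glotr_116786 and the cellobiose dehydrogenase gene Glotr_113732, whose products oxidize sugars, were also upregulated on both. Glotr_116786 had log2 fold changes of 1.59 on cedar and 3.84 on cellulose (adjusted p = 0.000784 and 0.00618), and Glotr_113732 of 2.52 and 1.56 (adjusted p = 9.22e-06 and 0.00527). The cellulose calls of these genes were made in 12 and 11 of 19 alternatives. That of Glotr_116786 was lost without cellulose replicate 1 or 2 or any 1 glucose replicate (log2 fold changes 3.22 or more, adjusted p up to 0.0253). That of Glotr_113732 was lost without cellulose replicate 1 or any 1 glucose replicate (adjusted p up to 0.0231). The AA3_3 gene Glotr_106260 and the AA5_1 copper-radical oxidase genes Glotr_35436 and Glotr_65654 were called on neither substrate against glucose. Glotr_65654 had log2 fold changes of −0.76 on cedar and 0.50 on cellulose (limma adjusted p = 0.000561 and 0.0176), with a mean of 238 TPM on glucose. Glotr_106260 had −0.96 and −0.30 (adjusted p = 0.135 and 0.804).

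Of the 3 genes for oxalate, which binds iron, 1 had opposite calls on the substrates. The oxaloacetate acetylhydrolase gene Glotr_42369, whose product makes oxalate, had 16.6, 13.6 and 23.0 TPM in cedar libraries, 3351, 4632 and 1877 TPM in cellulose libraries, and 542, 679 and 501 TPM in glucose libraries. Its log2 fold change was −5.00 on cedar against glucose (adjusted p = 2.81e-06), 2.43 on cellulose against glucose (adjusted p = 0.0018) and −7.43 on cedar against cellulose (adjusted p = 0.000225). The cellulose call was lost without glucose replicate 1 (adjusted p = 0.0112) and after rescaling to the same total TPM, where the value was 1.27, or quantile normalization (1.52, adjusted p = 0.0110). No GLP gene had opposite calls on the substrates. The glyoxylate dehydrogenase gene Glotr_54623, whose product also makes oxalate, was upregulated on both, by 1.55 (adjusted p = 3.79e-05) and 1.36 (adjusted p = 0.000244), although on cellulose not after rescaling to the same total TPM, where the value was 0.22 (adjusted p = 0.218). The other glyoxylate dehydrogenase gene, Glotr_61065, was called on neither against glucose (log2 fold changes −0.19 on cedar and 0.85 on cellulose, adjusted p = 0.241 and 0.00426) and was lower on cedar than on cellulose (−1.04, adjusted p = 0.00159). It was not called on cedar against cellulose without cedar replicate 1 or 3 or cellulose replicate 2, nor after rescaling to the same total TPM (−0.07).

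**Figure D5:**
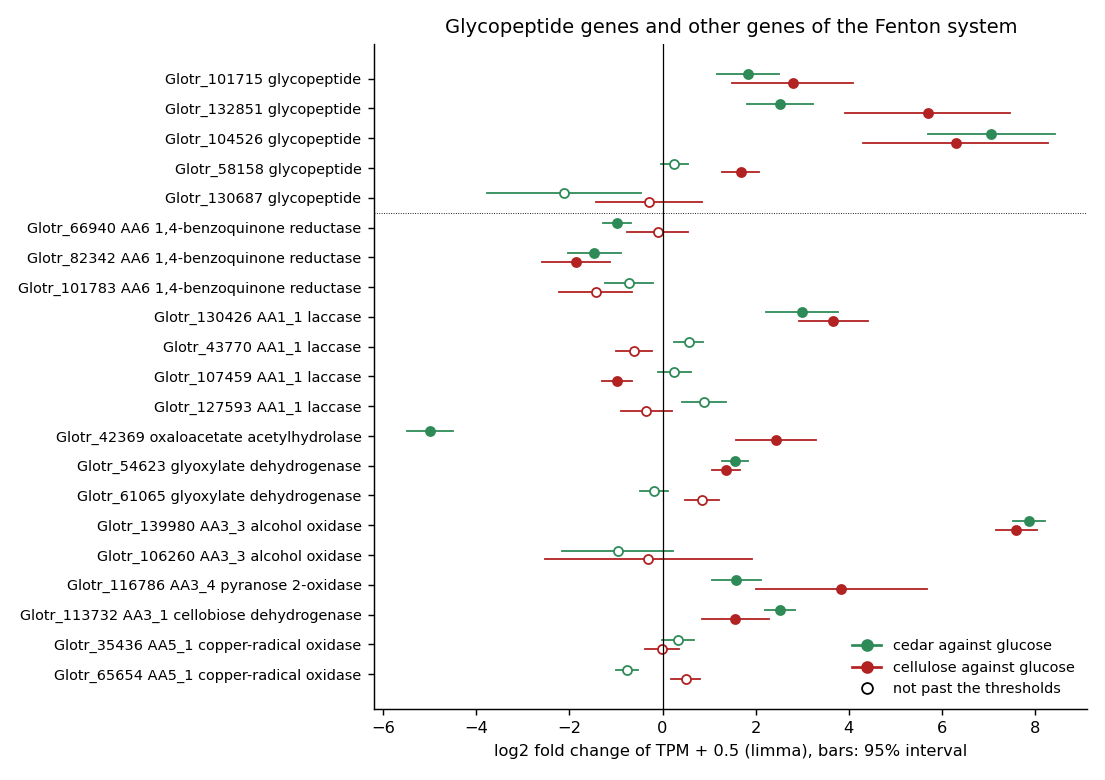
Log2 fold changes of TPM + 0.5 against glucose for the 5 GLP genes and the 16 other genes of the Fenton system, on cedar and on cellulose, with 95% intervals from limma and filled points past both thresholds. Glotr_139980 (7.87 on cedar) and Glotr_104526 (7.06 on cedar) reach furthest to the right, and Glotr_42369 is at −5.00 on cedar and 2.43 on cellulose.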

How the data were processed

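RNA of 9 cultures of *Gloeophyllum trabeum* (3 each on cedar, cellulose and glucose) was sequenced from stranded libraries. The authors cleaned the reads with FaQCs, used Kallisto 0.44.0 to pseudoalign them to JGI's filtered gene models, and normalized TPM between libraries with Sleuth 0.29.0 (versions from the submitters' processing notes). The deposited values, treated as a signal because their sums differ between libraries, are these normalized TPM for 11846 gene models, with no pooled columns. The test had been planned for TPM of fixed total and was used unchanged. Kallisto divides reads shared by similar genes among them by estimation, so that values of near-identical genes are uncertain.

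Tests used limma 3.58.1 in R 4.3.3 (lmFit, eBayes with a mean-variance trend, two-sided) on log2(TPM + 0.5), with the 2 groups compared in each fit, a filter of 0.1 TPM or more in 3 or more libraries, and Benjamini-Hochberg adjustment over all gene models tested. Tables and plots used Python 3.11.15, pandas 2.3.3, NumPy 2.4.6 and matplotlib 3.10.9. The test was tested on simulated data. As alternatives, 0.1 or 1 was added instead, the filter was dropped or raised to 1 TPM, and libraries were rescaled to the same total, by median of ratios or by quantiles. Others were a fit without the trend, a fit of all 3 groups, replicate numbers as a block, an adjusted p under 0.05, folds taken from the fit, and leaving out each library. Rescaling without the 2 highest gene models was chosen after seeing the data. The genes named are the 5 GLP genes, the 16 Fenton genes, the endoglucanase, and the 3 gene models most like each GLP gene. The members, lists and tests were chosen with earlier results of these data known. Locus tags of 11422 gene models matched RefSeq and 424 did not. Planned comparisons of protein and promoter sequences were not made, since no sequences were used here.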

Additional observations from a re-analysis of the deposited data

Results flagged for a closer look

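In 8 of the genes examined, cedar and cellulose differed in the direct limma test between these groups. The genes examined were the 5 GLP genes, the 16 other Fenton genes and the endoglucanase gene. Of all 10503 gene models in this test, 10.7% were upregulated and 5.95% downregulated on cedar. The GLP gene Glotr_58158 had a log2 fold change of −1.42 on cedar against cellulose (adjusted p = 0.00238), with means of 210 TPM on cedar and 566 TPM on cellulose, and was lower in 3 of 3 cedar cultures than in any cellulose culture. Its call was made in 13 of 19 alternatives, with adjusted p up to 0.107, and was lost under same-total and quantile scaling and without cedar replicate 1 or 3. The oxaloacetate acetylhydrolase gene Glotr_42369 had −7.43 (adjusted p = 0.000225), called in all 19 alternatives. The endoglucanase gene Glotr_63180 had −5.48 (adjusted p = 0.00681, and up to 0.0265 without cedar replicate 1 or 3 or cellulose replicate 1 or 2, which ended its call).

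The laccase genes Glotr_43770, Glotr_107459 and Glotr_127593 had 1.17, 1.23 and 1.24 (adjusted p = 0.0027, 0.00237 and 0.0071), at levels under 10 TPM. The glyoxylate dehydrogenase gene Glotr_61065 had −1.04 (adjusted p = 0.00159), and the copper-radical oxidase gene Glotr_65654 had −1.26 (adjusted p = 0.00125). These calls were made in 14, 15, 11, 12 and 14 of 19 alternatives. Without cedar replicate 3 all 5 were lost, without cedar replicate 1 all but that of Glotr_65654 were lost, and without cedar replicate 2 those of Glotr_43770 and Glotr_127593 were lost. That of Glotr_127593 was also lost without cellulose replicate 1 or 3, and that of Glotr_61065 without cellulose replicate 2. All 5 also lost their calls in some alternatives that kept every library. Over all alternatives Glotr_65654 ran from −1.33 to −0.28 (limma adjusted p up to 0.221), but from −1.29 to −1.21 with single libraries left out. Glotr_61065 ran from −1.10 to −0.07 over all alternatives.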

How the results depend on the processing

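The deposited values were rescaled by Sleuth, and the cellulose libraries had larger sums, so the scaling matters most for cellulose. Rescaling to the same total TPM moved the median over all gene models (log2) to −0.12 for cedar against glucose, −1.09 for cellulose against glucose and 0.91 for cedar against cellulose. Leaving the 2 highest gene models out of the total gave 0.09, −0.66 and 0.70. Relative to the median under the same total, Glotr_101715 had 2.73, Glotr_132851 5.62, Glotr_104526 6.38, Glotr_58158 1.61 and Glotr_130687 −0.36 on cellulose against glucose, near the values of 2.88, 5.77, 6.38, 1.76 and −0.20 relative to the median as deposited. Rescaling to the same total multiplies each library by a single factor, which moves nearly all gene models by the same amount. The nearness of these values to each other follows from that and is no separate support for the calls. Against glucose, Glotr_104526 and Glotr_132851 kept their calls in all 19 alternatives in both comparisons.

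For cedar against glucose, Glotr_101715 stayed at 1.84 but lost its call without a filter and with all 3 groups in 1 fit. Glotr_130687 passed as downregulated with the same total (−2.29, adjusted p = 0.00835) and with an adjusted p under 0.05 (−2.11), and leaving out single libraries gave −2.57 to −1.21. The downregulated GLP genes then numbered 1 under the same total and under an adjusted p of 0.05, beside 19.0% and 16.5% of all gene models. With single libraries left out they numbered 0 to 1, beside 14.5 to 15.5%. The share of upregulated among called gene models was 49.1% as deposited and 39.7% with the same total.

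For cellulose against glucose, Glotr_101715 lost its call without a filter (2.80) and with the same total (1.63), and Glotr_58158 with the same total (0.52). Without single libraries Glotr_101715 had 2.28 to 3.08, and Glotr_130687 had −0.78 to 0.23, positive without cellulose replicate 2 (0.23). With the same total, 2 GLP genes were upregulated, beside 353 gene models upregulated (3.36%) and 5934 downregulated. The upregulated share of called gene models was 5.62%, against 42.8% as deposited. Without the 2 highest gene models in the total, the numbers were 551 and 3568. The other Fenton genes upregulated were then 2 with the same total. Uncalled Fenton genes changed sign in this comparison, with the same total for Glotr_61065 (−0.29) and Glotr_65654 (−0.66), without the 2 highest gene models for Glotr_65654 (−0.17) and with quantile normalization for Glotr_127593 (0.039).

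For cedar against cellulose, Glotr_101715 was 0.026 with the same total and 0.00062 with quantile normalization, and Glotr_104526 was −0.16 without cellulose replicate 2 (range −0.16 to 1.68). Glotr_132851 passed with all 3 groups in 1 fit and with an adjusted p under 0.05 (−3.16 in both), and with single libraries left out it ran from −3.95 to −2.43. Glotr_58158 lost its call with the same total (−0.44), quantile normalization (−0.62) and the total without the 2 highest gene models (−0.68), and ran from −1.50 to −1.29 with single libraries left out. Downregulated GLP genes numbered 0 under those 3 scalings, beside 5.93% of all gene models with quantile normalization. They numbered 2 with all 3 groups in 1 fit or an adjusted p under 0.05, beside 7.59% and 8.42% of all gene models. With single libraries left out they numbered 0 to 2, beside 1.43 to 7.82%. Gene models downregulated were 382 without a filter, and the same total gave 4897 upregulated and 141 downregulated (97.2% upregulated, against 64.3% as deposited). Quantile normalization gave 707 upregulated (53.2% upregulated), and the total without the 2 highest gave 3523 and 177. Leaving out single libraries gave 287 to 1232 upregulated and 149 to 819 downregulated. The laccase gene Glotr_130426 was 0.27 with the same total and 0.038 without the 2 highest gene models, and −0.67 as deposited. The cause of these shifts was not tested.

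With the replicate number as a block, Glotr_101715 lost its call on cellulose against glucose (2.80, adjusted p = 0.0173). Glotr_58158 lost its call on cedar against cellulose (−1.42, adjusted p = 0.0145). In that comparison 0 GLP genes remained called, beside 285 (2.71%) upregulated and 127 (1.21%) downregulated gene models. The correlations of same-numbered deviations over 8649 gene models ran from −0.472 to 0.234 and showed no common pairing by number. With 3 libraries in each group they cannot exclude a pairing, and the labels give only a number. The block changed no other call of a GLP gene. The stricter match of protein sequences listed among the alternatives was not run.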
